A study of Mus musculus with 14 samples.

Results

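In adult mice mutant for Dcx, the pyramidal cells of hippocampal field CA3 lie in separate inner and outer layers, and the question here was which genes differed in level between those layers of the same animal. The titles give an inner and an outer array for 4 mutant animals (147, 146, 166 and 148), so 8 of the 14 arrays of the study entered, as 4 within-animal differences. Mutant 165 has an outer array only and was left out of the within-animal test, as were the 5 wild-type (WT) arrays. These arrays entered the normalisation and an alternative fit of all 14 arrays, which is not limited to the within-animal differences. All values below are given for animals 147, 146, 166 and 148 in that order.

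All animals were adults of the Sv129Pas strain. Their genotype was WT or mutant for doublecortin (Dcx), a gene on the X chromosome. CA3 of WT animals was dissected as 1 piece, and in mutants the layers were microdissected apart. Which part of Dcx is mutated is not given in the labels, and they describe the dissected material as pooled before RNA was isolated, so the titles' animal numbers were taken as the replicates. The bracketed layer code of the outer samples' brain region field names the inner layer, against their titles and the words beside it, and the grouping follows the titles.

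Doublecortin binds and stabilises microtubules in migrating and growing neurons, and neurons that lack it can stop short of their final place. In the mutant hippocampus this leaves CA3 with a doubled pyramidal layer in place of a single one. CA3 pyramidal cells are excitatory neurons, surrounded by inhibitory interneurons and by glia, and a dissected strip holds RNA from all of them. With bulk RNA, a gene can differ because more or fewer cells of a type were cut out or because each cell held more or less of its RNA, and these cannot be told apart.

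The arrays differed in brightness before any normalisation. Mean raw bead signal was 414, 400, 478 and 279 intensity units on the outer arrays and 119, 362, 331 and 231 on the inner arrays. The inner array was the dimmer one in 4 of 4 animals, with inner minus outer differences of -295, -38.3, -147 and -48.6 units (mean -132 ± 119, SD, n = 4). A two-sided exact sign-flip permutation test gave p = 0.13, which is the smallest value that 4 pairs allow. Probes with a detection p under 0.05 numbered 10997, 11440, 11843 and 10123 on the outer arrays and 8413, 11406, 11109 and 10366 on the inner arrays, and the difference did not pass (exact permutation p = 0.375). The inner array of animal 147 was the dimmest of the 14, and the outer array of animal 148 was dimmer than every other outer and every WT array. The 5 WT arrays spanned 371 to 515 units and 11303 to 11988 detected probes.

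**Figure D1:**
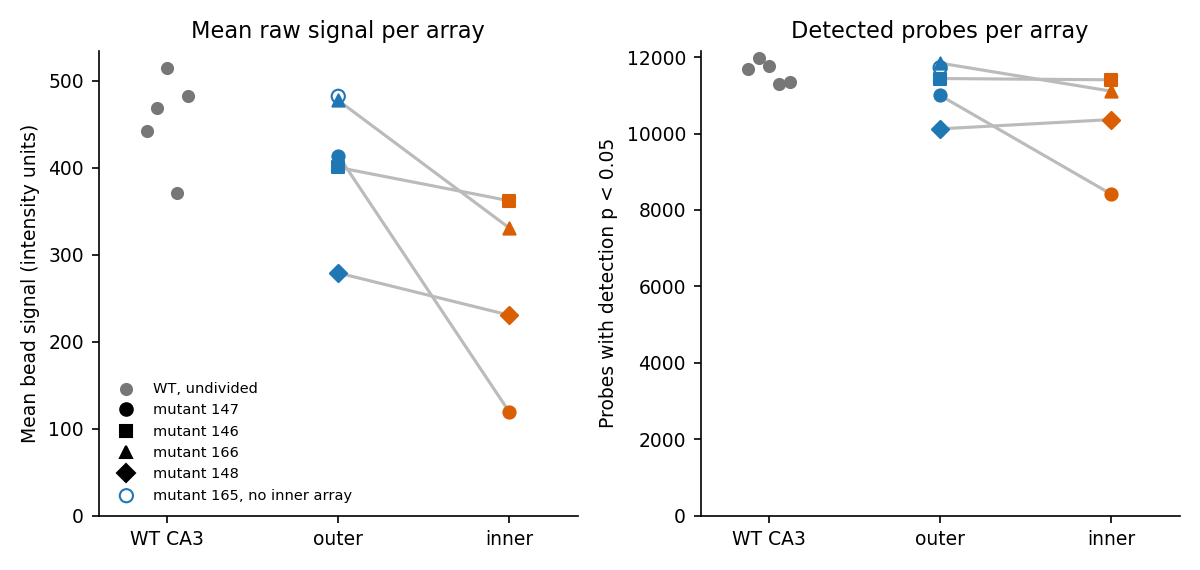
Mean raw bead signal (left, intensity units) and number of detected probes (right) for each array, with the inner and outer arrays of 1 mutant joined by a line. All 4 lines fall in the left panel, from 414 to 119 units in animal 147, while the number of detected probes rose from outer to inner in animal 148.

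After background correction and quantile normalisation, 8570 features (7962 named genes and 608 unnamed probes) passed a filter that asked for detection on at least 4 of the 8 arrays. A feature was called when its Benjamini-Hochberg adjusted p in limma's paired fit was under 0.05. This held for 378 features, or 4.41% of those tested. Of these, 249 (2.91%) were higher and 129 (1.51%) were lower in the inner layer, with median differences of 1.06 and -0.91 on the log2 scale, while the median over all features was -0.0082. At an unadjusted p under 0.05 there were 2114 of the 8570 features, the base for the unadjusted counts of the lists below. The split depended on the scaling: 65.9% of the calls were in the higher direction here, 80.4% with median scaling (262 higher and 64 lower), 55.0% without background correction (599 and 491) and 54.8% in the authors' normalised values (595 and 491). Every called feature had the same sign in all 4 animals, which also held for 36.6% of all features. The 4 inner arrays lay wholly above or wholly below the 4 outer arrays for 959 features, 11.2% of those tested. That was so for 221 of the 249 called higher, and for 35 of the 129 called lower. The counts depended on which animals entered. With the same test, 0 features were called without animal 146 (1330 at an unadjusted p under 0.05), 0 without animal 166 (1694) and 1 without animal 148 (1723), while 610, 377 of the 378 included, were called without animal 147. All 378 features kept their sign in each of these fits, which had to hold because each had the same sign in all 4 animals.

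**Figure D2:**
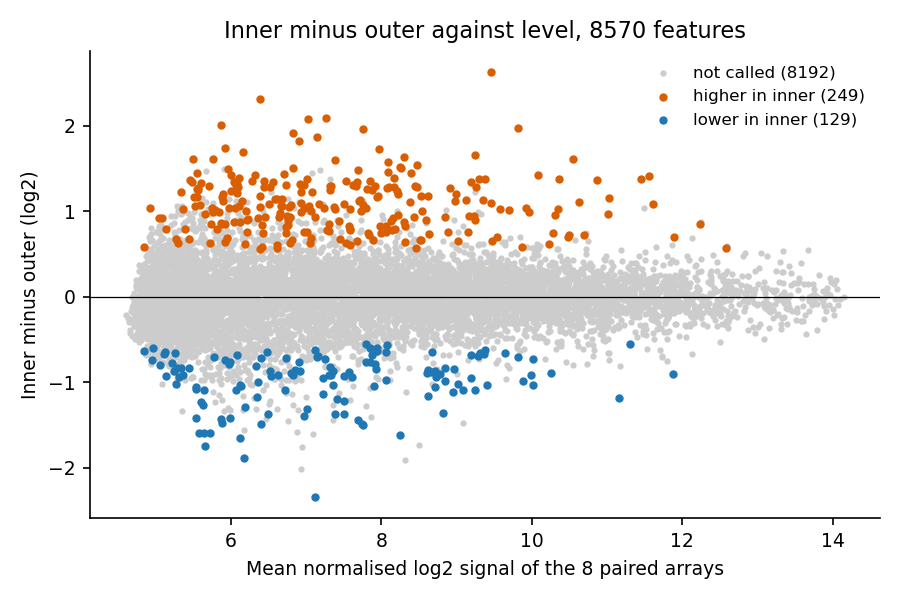
Inner minus outer difference (log2) against the mean normalised log2 signal of the 8 paired arrays, 1 point per feature. The 249 features called higher extend up to 2.63, and both sets of called features spread over dim and moderately bright signals.

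The 15 largest rises in the inner layer among named genes ran from 1.63 to 2.63 on the log2 scale. Lypd1, whose protein binds nicotinic acetylcholine receptors and dampens them, stood at 7.68, 8.09, 7.43 and 9.36 (log2 signal) on the outer arrays and at 10.63, 10.88, 10.42 and 11.16 on the inner arrays. Every inner array lay above every outer one, and the rise was 2.63 ± 0.22 (SE, 6.19-fold, limma adjusted p = 0.0159). Its rise was smallest in animal 148 (1.79 against 2.79 to 2.99 in the other 3), whose outer array held the highest outer level. Cdh13, a cadherin held to the membrane by a lipid anchor, rose by 2.09 ± 0.24. Gjd2, which encodes the connexin of electrical synapses between neurons, rose by 1.83 ± 0.13, and its further probe gave 1.42. Rgs10, a regulator of G protein signalling that microglia and neurons express, rose by 1.72 ± 0.18. Rcan2, an inhibitor of calcineurin, rose by 1.66 ± 0.16. Caskin2 and Syndig1l rose by 1.74 ± 0.15 and 1.70 ± 0.17, both dim genes detected on 4 inner and 3 outer arrays. Gldc, the glycine-cleaving enzyme of astrocytes, rose by 1.63 ± 0.17. The adjusted p of these genes ran from 0.0159 to 0.0167, and the within-animal differences of each were above 1 in all 4 animals.

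**Figure D3:**
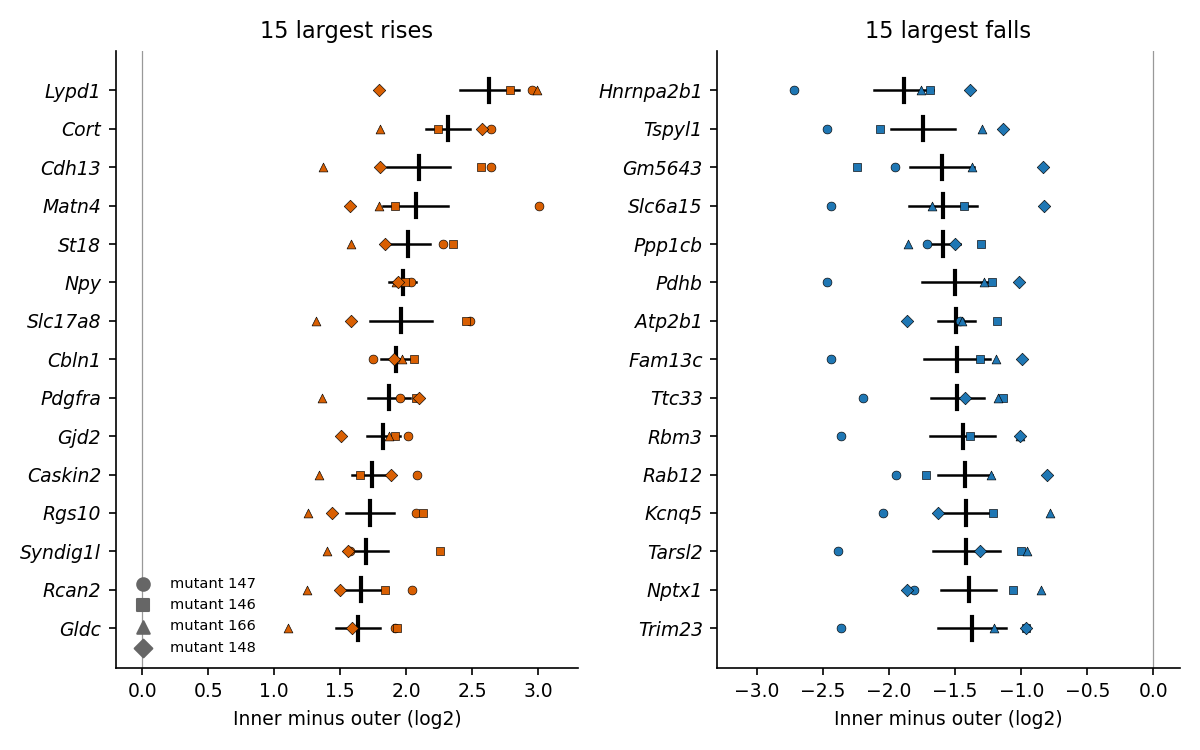
Inner minus outer difference (log2) in each of the 4 animals for the 15 largest rises and the 15 largest falls among called named genes. Vertical ticks are the fitted means, horizontal bars their SE and marker shapes the animals. Npy and Cbln1 differed by nearly the same amount in every animal, while for most falling genes animal 147 sits furthest from 0.

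Markers of interneurons had the highest median of the 17 cell type lists. The lists were chosen with earlier results of these data known, so this ranking and the list counts here and below are a description and no test. Of 30 listed genes 17 were measured, 9 rose, 0 fell and 8 did not pass. Not all leaned one way: 13 of the 17 had a mean difference above 0, and 1 was below 0 in all 4 animals (-0.35). The median difference over the 17 was 1.10, against -0.0082 over all features, and within animals it was 1.26, 1.54, 0.85 and 0.97. The summed normalised signal of the 17 genes was 19520 to 23450 on the inner arrays, 12550 to 13860 on the outer arrays and 14140 to 16040 in WT. The inner range lay above both other ranges.

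Among the peptides of interneurons, Npy (neuropeptide Y) read 8.63, 9.09, 8.75 and 8.86 on the outer arrays and 10.66, 11.08, 10.68 and 10.79 on the inner arrays, and 8.77 ± 0.37 (SD, n = 5) in WT. The rise of 1.97 ± 0.10 (3.92-fold) had the lowest adjusted p of the comparison, 0.00865 in limma. It differed little between animals, at 2.04, 1.99, 1.92 and 1.94 in the 4 animals. Cort, which encodes cortistatin, a relative of somatostatin, rose by 2.32 ± 0.17 from a dim outer mean, and its further probe gave 1.86. Sst (somatostatin) rose by 1.10 ± 0.13. Crhbp, the binding protein of corticotropin-releasing hormone, rose by 1.39 ± 0.18. These 4 were the only called genes among 22 measured neuropeptides, peptide receptors and binding proteins, and 0 of that list fell.

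Pvalb, the calcium buffer of fast-spiking basket cells, read 10.93, 10.69, 10.40 and 11.05 on the outer arrays and 12.19, 12.21, 11.99 and 12.20 on the inner arrays. The inner arrays were all higher than the outer arrays, and higher than the 5 WT arrays (mean 11.09 ± 0.07, SD). The rise was 1.38 ± 0.12 (2.60-fold, limma adjusted p = 0.0159). Slc32a1, the vesicular transporter that loads GABA and glycine into synaptic vesicles, rose by 1.62 ± 0.18. Nxph1, a ligand of neurexins made by interneurons, rose by 1.28 ± 0.14. Reln, the secreted protein of Cajal-Retzius cells and of some interneurons, rose by 1.29 ± 0.20, least in animal 166 (0.59). Slc17a8, the vesicular glutamate transporter VGLUT3 found in a subset of interneurons, rose by 1.96 ± 0.23. With log2 mean raw signal as a covariate in the paired fit, 6 interneuron genes were called instead of 9, and Slc17a8, Slc32a1 and Reln were not among them.

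Glial markers also stood higher in the inner layer. Of 20 measured genes of myelin and oligodendrocytes (30 listed), 10 rose, 0 fell and 10 did not pass, with a median of 1.01. The within-animal medians were 0.97, 1.11, 0.50 and 1.53. Their summed signal was 14280 to 25520 on the inner arrays, 9252 to 10060 on the outer arrays and 7648 to 10180 in WT. St18, a zinc finger transcription factor gene on this list, rose by 2.01 ± 0.16 and was detected on 4 inner arrays and 1 outer array. Enpp6, a choline phosphodiesterase of newly forming oligodendrocytes, was likewise detected on 4 and 1 arrays, and rose by 1.61 ± 0.14. St18 and Enpp6 passed the filter through the inner arrays, where they are high, so their calls are no support and their values are a description. Of the 17 genes of the list detected on all 8 arrays, 8 rose, with a median of 1.00. Olig1, a transcription factor of the lineage, read 9.17, 9.30, 9.32 and 9.69 on the outer arrays and 10.79, 10.77, 10.38 and 11.23 on the inner arrays. All 4 inner values were above all outer ones (rise 1.42 ± 0.13, limma adjusted p = 0.0159). Cnp, the nucleotide phosphodiesterase of myelin, rose by 1.13 ± 0.12.

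Of 6 measured genes of oligodendrocyte precursors (12 listed), 2 rose and 0 fell. Pdgfra, the receptor of platelet-derived growth factor that defines these precursors, read 6.08, 6.15, 6.19 and 6.38 on the outer arrays and 8.04, 8.23, 7.55 and 8.47 on the inner arrays. The groups were more than 1 log2 unit apart, and the rise was 1.87 ± 0.16 (3.66-fold). Matn4, the matrix protein matrilin 4, rose by 2.07 ± 0.25, most in animal 147 (3.01). Gpr17, a receptor of cells that are maturing into oligodendrocytes, differed by 1.14 ± 0.28 and did not pass (limma adjusted p = 0.0802). It was 1.40 to 1.59 higher in animals 146, 166 and 148 and 0.02 higher in animal 147. The proteoglycan gene Cspg5 differed by 0.45 ± 0.15 and did not pass either.

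Of 19 measured astrocyte markers (24 listed), 8 rose, 0 fell and 11 did not pass, with a median of 0.61. The medians within animals were 0.90, 0.96, 0.30 and 0.48. The summed signal was 26290 to 34950 on the inner arrays against 16480 to 19040 on the outer arrays and 15970 to 19390 in WT. Slc1a3, the glutamate transporter GLAST, read 10.88, 11.01, 11.19 and 11.22 on the outer arrays and 12.15, 12.28, 11.86 and 12.35 on the inner arrays. It rose by 1.09 ± 0.14, and the groups did not overlap. Aqp4, the water channel of astrocyte endfeet, rose by 1.22 ± 0.14, the tight junction gene Cldn10 by 1.01 ± 0.13, and Aldoc, the aldolase of astrocytes, by 0.97 ± 0.13. With log2 mean raw signal as a covariate, limma called 0 astrocyte markers (11 at an unadjusted p under 0.05), and their median was then 0.59.

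Of 14 measured microglial markers (22 listed), 4 rose, 0 fell and 10 did not pass, and the median was 0.58. Of those that did not pass, 1 was below 0 in all 4 animals (-0.44). It was called lower with array quality weights, without background correction and in the authors' normalised values. Laptm5, a lysosomal membrane protein of immune cells, rose by 1.18 ± 0.19. C1qa and C1qb, subunits of the complement component C1q, rose by 1.01 ± 0.18 and 0.81 ± 0.13, and Tmem119, a marker of resident microglia, by 0.69 ± 0.13. C1qa was dim, reading 5.05, 5.16, 5.32 and 5.58 on the outer arrays and 6.68, 6.09, 6.20 and 6.19 on the inner arrays. Its inner values were still higher than the outer ones in every animal.

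Cells of vessels, meninges and ventricle gave a mixed picture. Of 15 measured endothelial and mural genes 1 rose and 1 fell, with a median of 0.25. Vtn (vitronectin, a pericyte marker) rose by 0.72 ± 0.12, and Itm2a fell by 0.79 on the log2 scale. The smooth muscle actin gene Acta2 differed by 1.49 ± 0.34 without passing, and its further probe gave -0.34. Slc2a1, the glucose transporter of the blood-brain barrier, differed by 0.53 ± 0.12 without passing. Of 13 listed meningeal and fibroblast genes only 3 were measured, and 2 of them rose. Igf2 (insulin-like growth factor 2) read 6.84, 7.21, 7.77 and 7.38 on the outer arrays and 9.05, 9.01, 8.29 and 9.14 on the inner arrays, a rise of 1.57 ± 0.28. Its binding protein gene Igfbp2 rose by 1.05 ± 0.14, whereas the prostaglandin D synthase gene Ptgds (0.99 ± 0.20) did not pass. Kl (klotho), made by choroid plexus and by some neurons, rose by 1.15 ± 0.12 and was the only one called of 4 measured choroid plexus and ependymal genes. The part that any of these cell types had in the other rises was not tested.

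**Figure D4:**
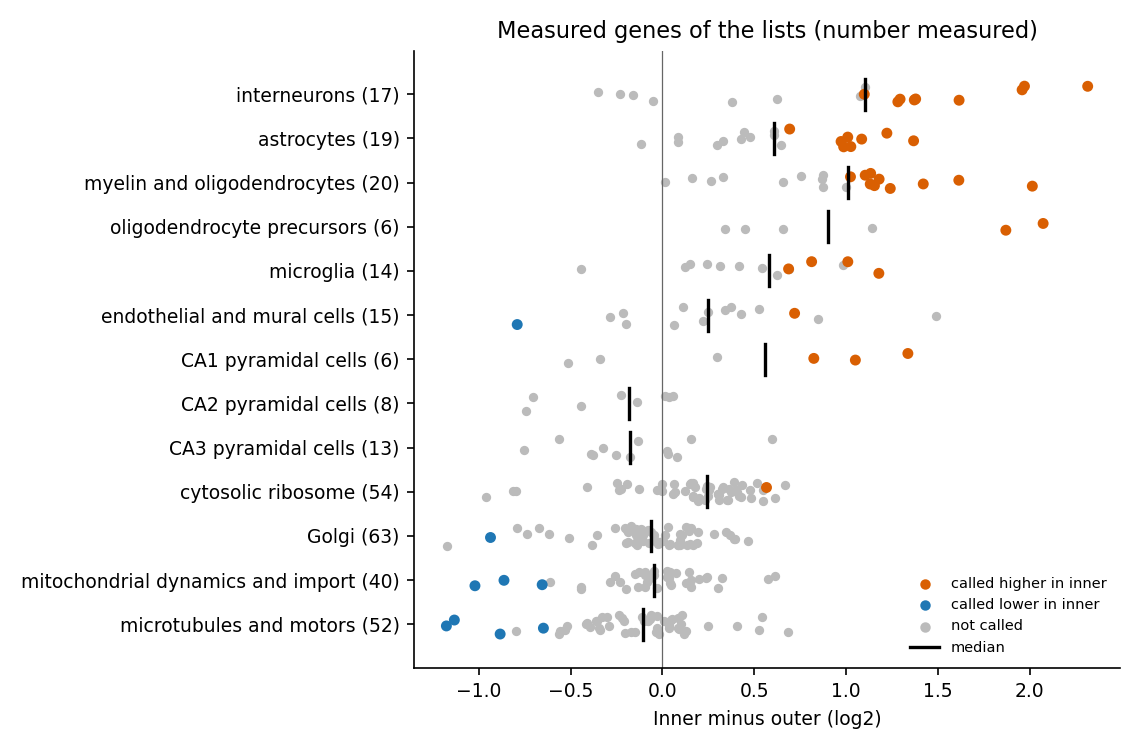
Inner minus outer difference (log2) of every measured gene in 13 lists, with the number measured in brackets and the list's median as a black tick. Called genes of the interneuron, astrocyte, myelin, precursor and microglia lists all lie above 0, and the medians of the CA2 and CA3 lists lie slightly below 0.

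Markers of CA3 pyramidal cells, the cells the dissection aimed at, had a high summed signal in both layers. Of the 13 measured, 10 were detected on all 8 arrays, and none was called by limma in the main fit. The calls depended on the processing: 3 fell and 1 rose without background correction, in the authors' normalised values and in a fit of all 14 arrays. Median scaling and the signal covariate called 0. Of 16 listed genes 13 were measured (1 higher and 4 lower at an unadjusted p under 0.05), with a median difference of -0.18 and a summed signal of 31480 to 37040 on the inner arrays, 33010 to 41240 on the outer arrays and 35390 to 39670 in WT. The 3 ranges overlapped, but within each animal the inner sum was the lower one. It was 37120, 38360, 41240 and 33010 on the outer arrays and 36620, 37040, 36920 and 31480 on the inner arrays. Nectin3, an adhesion protein of CA3 synapses, differed by -0.56 ± 0.12 (limma adjusted p = 0.0611). Cpne4, a calcium-dependent membrane-binding protein, read 12.20, 12.35, 12.36 and 11.81 on the outer arrays and 10.66, 11.82, 11.83 and 11.39 on the inner arrays. The difference of -0.75 ± 0.21 did not pass, and the lowest value was that of the dim inner array of animal 147. Bok, a member of the Bcl2 family, differed by 0.60 ± 0.18 without passing, mainly through animal 147, and its further probe gave -0.18.

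Of 6 measured CA1 markers (12 listed) 3 rose, 0 fell and 3 did not pass, and the members did not all lean one way: 2 of the 6 were lower in all 4 animals. Lefty1, a secreted antagonist of Nodal signalling, was one of those lower (-0.51 ± 0.15, limma adjusted p = 0.108). Among those that rose, Mpped1, which encodes a predicted metallophosphoesterase, rose by 1.05 ± 0.13, Cds1, an enzyme that makes CDP-diacylglycerol, by 0.82 ± 0.13, and the transcription factor Pou3f1 by 1.34 ± 0.22. Mpped1 lay at 7.71 to 8.06 on the inner arrays and at 6.64 to 6.96 on the outer arrays, so the layers did not overlap. Pou3f1 was dim, detected on 4 inner and 2 outer arrays, and rose most in animal 148 (2.16, against 0.87 to 1.19 in the others). Of the 5 CA1 genes detected on all 8 arrays 2 rose, with a median of 0.30. The summed signal of the 6 CA1 genes was 797 to 1003 on the inner arrays, 569 to 744 on the outer arrays and 581 to 772 in WT. No gene of the CA2 list (8 measured), of the dentate granule cell list (4) or of the mossy cell list (5) was called, with 1, 1 and 3 genes at an unadjusted p under 0.05 in limma. Amigo2, an adhesion protein enriched in CA2, differed by -0.74 ± 0.23. Of 6 measured genes of subiculum and entorhinal cortex 2 rose, namely Cbln1 and Cux2, the latter an upper-layer cortical transcription factor gene that was dim and rose by 1.61 ± 0.21. None of 5 measured thalamic markers was called (3 higher at an unadjusted p under 0.05).

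Of 5 measured cerebellins, C1q-like proteins and their receptors, 2 rose, 1 fell and 2 did not pass. Cbln1 encodes cerebellin 1, which bridges neurexins on axons to glutamate delta receptors. It read 6.09, 5.83, 5.65 and 5.87 on the outer arrays and 7.84, 7.88, 7.62 and 7.78 on the inner arrays, with 6.28 ± 0.19 in WT. Animals differed little, the rise was 1.92 ± 0.11 (3.78-fold), and the adjusted p of 0.00865 in limma equalled that of Npy. Cbln4, a family member that binds neurexins and netrin receptors, rose by 1.29 ± 0.16. C1ql2, a C1q-like protein of mossy fibre synapses, differed by 1.38 ± 0.35 and did not pass (adjusted p = 0.085 in limma), since it was 2.71 higher in animal 147 and 0.48 in animal 148. Adgrb3, a receptor that binds C1q-like proteins, fell by 0.55 on the log2 scale.

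In the synaptic vesicle list 3 of 33 measured genes rose and 2 fell. Rims3, a small member of the active zone RIM family, rose by 1.51 ± 0.15, beside the vesicular transporters Slc32a1 and Slc17a8. Dnm1 (dynamin 1), the GTPase that pinches off synaptic vesicles, fell by 1.03 on the log2 scale, by 0.83 to 0.84 in 3 animals and by 1.61 in animal 147, and its further probe gave -1.26. Cplx2, a complexin that controls vesicle fusion, fell by 0.99. Among adhesion genes Cdh13, Pcdh17 (a protocadherin, 1.34 ± 0.16) and Cntnap4 (a neurexin relative of interneuron synapses, 0.89 ± 0.13) rose, 3 of 36 measured, and 2 fell, Nptx1 and the cadherin gene Cdh8 (-0.63). Cplx2 and Cdh8 were named after their values were seen. One of 17 measured glutamate receptor genes was called, the auxiliary subunit gene Neto1, which fell by 0.98. None of 7 measured GABA receptor genes was called (4 at an unadjusted p under 0.05). Of 44 measured voltage-gated channel genes 1 rose (Kcnip3, the calcium sensor DREAM that modulates potassium channels, 0.67 ± 0.11) and 1 fell (Kcnq5, a potassium channel of the M-current, -1.42 ± 0.22). Both channel counts are shares near those of all features (2.91% higher and 1.51% lower). In axon guidance 1 of 37 rose, a share also near 2.91%. This was the semaphorin gene Sema4g (1.29 ± 0.19), detected on 4 inner and 2 outer arrays. Timp3, an inhibitor of matrix metalloproteinases, rose by 1.03 ± 0.16 and made, with Matn4, 2 of 23 measured matrix genes. Ifitm3, an interferon-induced membrane protein, rose by 0.85 ± 0.14, 1 of 12.

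The 15 largest falls among named genes ran from -1.89 to -1.37, and most of these genes were not detected on every inner array. Hnrnpa2b1, a nuclear protein that binds and sorts RNA, read 7.37, 7.40, 7.82 and 5.87 on the outer arrays and 4.65, 5.71, 6.06 and 4.49 on the inner arrays. The inner array was lower in every animal, yet the outer array of animal 148 overlapped with the inner arrays. The fall was -1.89 ± 0.23 (3.71-fold, limma adjusted p = 0.0168). Rbm3, an RNA-binding protein induced by cold, fell by 1.44, and Hnrnph1, a splicing regulator, by 0.93, with its 4 further probes at a median of -0.73. They made 3 falls and 0 rises among 29 measured Hnrnp, Srsf and Rbm genes. Atp2b1, a calcium pump of the plasma membrane, read 8.79, 8.74, 8.96 and 7.46 on the outer arrays and 7.33, 7.56, 7.52 and 5.59 on the inner arrays, and fell by 1.49. Ppp1cb, a catalytic subunit of protein phosphatase 1, fell by 1.59 and its further probe by 0.98. Slc6a15, a transporter of neutral amino acids in neurons, and Nptx1, a pentraxin that clusters AMPA receptors, fell by 1.59 and 1.40. Rab12, a small GTPase of endosomal traffic, fell by 1.43. The other genes among the 15 largest falls were Tspyl1, Gm5643 (a transcribed pseudogene in RefSeq), Pdhb, Fam13c, Ttc33, Kcnq5, Tarsl2 and Trim23, between -1.74 and -1.37.

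One dim outer array shared these falls. The outer array of animal 148, the dimmest of the outer arrays, held the lowest of the 4 outer values for 122 of the 129 features called lower, against 31.2% of all features. Their median on that array, relative to the mean of the other 3 outer arrays, was -0.93 log2 units, about the size of their inner minus outer difference (-0.91). For the 249 features called higher, the same median was 0.26, and it was 0.10 for all features. The dimmest inner arrays stood out too. Relative to the WT mean, the median of the features called lower was -1.20, -0.92, -0.84 and -1.92 on the inner arrays and -0.08, -0.04, -0.03 and -0.99 on the outer arrays. For features called higher it was 1.19, 1.28, 0.79 and 1.30 on the inner arrays and 0.01, -0.005, 0.02 and 0.27 on the outer arrays. With log2 mean raw signal as a covariate, the paired fit called 29 features lower and 109 higher. Without the animal as a block, 10 were called lower and 184 higher. For the features called lower, the inner array of animal 147 was less low than that of 148, though dimmer. The other outer arrays (400 to 482 units) lay at -0.08 to -0.03, and the WT arrays between -0.24 (at 469 units) and 0.26 (at 442 units). The features were chosen on the paired arrays, and the inner array was the dimmer one in all 4 animals. How much of the falls goes with brightness and how much with layer was not tested.

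**Figure D5:**
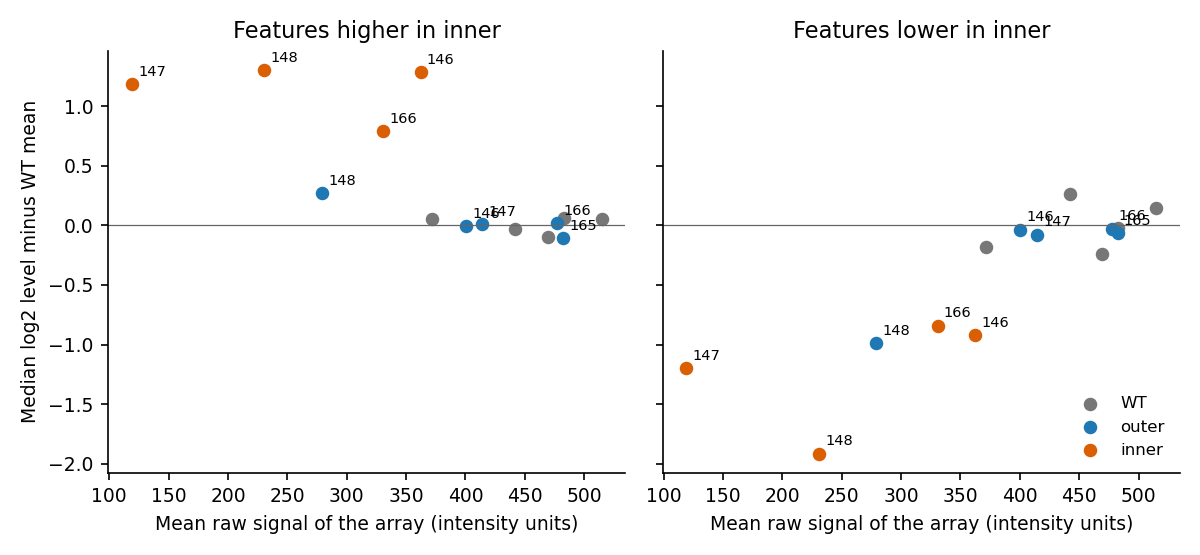
Median log2 level relative to the WT mean, over the 249 features called higher (left) and the 129 called lower (right), against the mean raw signal of each of the 14 arrays. In the left panel the outer array of animal 148 (279 units) sits at 0.27, near the other outer arrays, and in the right panel it sits at -0.99, among the inner arrays.

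The title of the study concerns the Golgi apparatus and mitochondria, and the layers were compared on those genes. Of 63 measured Golgi genes 1 fell, a share near the 1.51% of all features, and 0 rose, with a median of -0.062. In the authors' normalised values and without background correction 6 fell and 1 rose, and in a fit of all 14 arrays 8 fell and 4 rose. The gene called in the main fit was Golga7, part of the enzyme complex that attaches palmitate to Ras, which fell by 0.94. It was dim and detected on 4 outer and 2 inner arrays. Of the 56 Golgi genes detected on all 8 arrays, that fit called 0. None of 37 measured ER export genes and none of 22 ER chaperone genes was called by limma. In each list 7 had an unadjusted p under 0.05, beside 2114 of all 8570 features. The chaperone Calr (-1.31 ± 0.27) and the selenoprotein Selenof (-1.74 ± 0.46) differed widely between animals and did not pass. Selenof was lower by 3.62 in animal 147 and by 0.98 to 1.36 in the other 3.

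For mitochondria, limma called 0 of 32 measured complex I genes and 0 of 38 genes of complexes II to V. It also called 0 of 66 mitochondrial ribosome genes. In these lists 4, 7 and 12 genes had an unadjusted p under 0.05, smaller shares than the 2114 of 8570 over all features. Atp5pb, a stalk subunit of ATP synthase, differed by -1.48 ± 0.38 and did not pass (limma adjusted p = 0.0865), at -3.00 in animal 147 and -0.73 to -1.19 in the rest. Of 40 measured genes of mitochondrial dynamics and import 3 fell and 0 rose, with a median of -0.045. Over all features 1.51% were called lower. Median scaling also gave 3 falls, while the signal covariate and the fit without the animal block gave 0. Without background correction 4 fell and 2 rose, and in a fit of all 14 arrays 5 fell and 3 rose. Vdac3, a channel of the outer membrane, read 9.87, 9.88, 9.96 and 8.40 on the outer arrays and 8.72, 8.67, 8.87 and 7.76 on the inner arrays. It fell by 1.02, with differences of -1.15, -1.20 and -1.08 in the first 3 animals and -0.65 in animal 148. Its outer value in animal 148 lay below 3 of the inner values. Dnm1l and Mff, the fission GTPase and its receptor, fell by 0.65 and 0.86. A further probe of Dnm1l gave -0.81, while that of Mff gave 0.08. In the citrate cycle list 2 of 21 fell. These were Pdhb, a subunit of pyruvate dehydrogenase, by 1.50, and the malate dehydrogenase gene Mdh1 by 0.89, whose further probe gave 0.28. No gene of this list was called with the signal covariate or without the animal block, and 6 fell in the fit of all 14 arrays. Of 16 glycolytic genes 2 fell, the phosphofructokinase gene Pfkp by 1.16 and Pgam1 by 0.69, and 1 rose, Aldoc, which is also on the astrocyte list.

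Of 54 measured cytosolic ribosomal protein genes 1 rose and 0 fell, a share below the 2.91% of all features. The called gene was Rps19 (0.56 ± 0.10), and its further probe gave -0.14. The list's median was 0.25, and 29 of its genes were above 0 in all 4 animals. The number called higher depended on the processing: it was 17 without background correction and in the authors' normalised values, 20 in a fit of all 14 arrays, and 0 with median scaling. Rpl37 was 0.41 to 0.52 higher in each animal and narrowly missed the threshold (0.48 ± 0.10, limma adjusted p = 0.0557). Among 52 measured genes of microtubules and motors 4 fell and 0 rose, with a median of -0.10. Over all features 1.51% were called lower. The number of falls in this list depended on the processing: it was 1 with the signal covariate, 1 with median scaling and 0 without the animal block. In a fit of all 14 arrays 13 fell and 4 rose. Map7, which recruits kinesin 1 to microtubules, fell by 1.18, Dynll2, a dynein light chain, by 1.13, the kinesin gene Kif21a by 0.88 and the stathmin gene Stmn4 by 0.65. None of 32 measured proteasome genes, 16 immediate early genes, 17 cholesterol synthesis genes, 23 heat shock genes or 15 clock genes was called by limma. In that order 2, 2, 2, 6 and 5 had an unadjusted p under 0.05, beside 2114 of all 8570 features.

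Dcx itself was read by a dim probe, at 5.37, 5.07, 4.85 and 5.79 on the outer arrays and 4.64, 5.64, 5.37 and 5.55 on the inner arrays. It was higher in the inner layer of animals 146 and 166 and lower in that of 147 and 148, and the mean difference was 0.03 ± 0.24. Since the mutated part is not named, the probe checks nothing about the genotype. Of the related doublecortin-like kinases, Dclk1 (0.11 ± 0.11) and Dclk2 (0.01 ± 0.10) did not pass. Dclk3 read 7.24, 7.11, 7.32 and 7.10 on the outer arrays and 8.31, 7.91, 7.74 and 7.93 on the inner arrays, which did not overlap. It rose by 0.78 ± 0.14 (limma adjusted p = 0.037), a call that was lost with log2 mean raw signal as a covariate and with median scaling.

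A few genes crossed the detection limit between layers. In all, 8 features were detected on all 4 inner and 0 of the outer arrays. They passed the filter only through the layer where they are high, so their calls are no support and their values are a description. Taking the lowest well-detected signal as the floor of the outer arrays, Smtn (smoothelin, of contractile smooth muscle) was at least 1.64-fold higher in the inner layer, Icam2, an adhesion protein of endothelium, at least 1.62-fold, Mkrn3, an imprinted ubiquitin ligase gene, at least 1.58-fold, and Bmp4, a secreted growth factor, at least 1.52-fold. Bmp4 was detected on 0 of 5 WT arrays and the other 3 on 3 of 5. In the opposite direction 10 features were detected on 4 outer and 0 inner arrays, which are subject to the same limit.

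Arrays that took no part in the test were set against the called features. The outer array of animal 165 lay nearer the outer than the inner mean for 246 of the 249 features called higher (98.8%) and for 129 of the 129 called lower, against 74.9% of 8192 features that were not called. That baseline is unlike, since the called features were chosen for wide gaps between layers. Their median gaps were 1.06 and -0.91, against -0.014 for the features not called, so the contrast of shares is no test of the calls. The mean of the 5 WT arrays lay nearer the outer mean for 247 of 249 and for 129 of 129. Single WT arrays did so for 94.0 to 99.2% of the former and 94.6 to 100% of the latter. Npy, for example, read 8.07 on the outer array of animal 165 and Pdgfra 6.03, both below every inner array. That array was bright, at 482 units, so the falling genes on it were not measured at the low brightness of animal 148.

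Different probes of a gene were compared where more than 1 passed the filter. For called genes that rose, 47 of 52 further probes (90.4%) had the same sign, with a median over genes of 0.63. For called genes that fell, 43 of 52 (82.7%) did, with a median of -0.68, against 63.2% of 2260 further probes of genes that were not called. Genes not called are an unlike baseline, since the called ones were chosen for differences of 1 sign. Further probes were also read on the same arrays, so these shares do not separate layer from brightness.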

How the data were processed

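RNA of dissected CA3 was hybridised to Illumina bead arrays, 1 per sample. The authors deposited bead signals as linear intensity values without normalisation between arrays, and a detection p-value for each probe and array; BeadStudio is named per the submitters' processing notes, and how it treated background was not stated there. A second deposited table holds normalised intensity values and served as an alternative.

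From the signals of all 14 arrays, background was corrected with limma's normexp from detection p-values (offset 16); quantiles were then normalised and log2 taken (R 4.3.3, limma 3.58.1). Of 25697 probes, 10934 had a detection p under 0.05 on at least 4 of the 8 paired arrays. Platform annotation named 1 gene for 23978 probes, several for 0 and none for 1719. Each gene was represented by its brightest probe. limma's fit had animal and layer as terms (3 residual and 3.01 prior degrees of freedom), was two-sided and was adjusted over 8570 features. Errors of differences are SE. The self-check of the fit used simulated data with known changes. The number of arrays limits the precision. Nothing in the labels besides the animal numbers says that the arrays come from separate animals, so p-values cover the spread between these samples.

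The titles' animal numbers give the pairing; deviations of same-animal arrays from their layer means correlated at 0.131, 0.314, 0.346 and 0.658 for animals 147, 146, 166 and 148. Each inner array correlated best with its own animal's outer array, but the outer arrays of 147 and 146 correlated more with the inner array of 166 (0.311 and 0.338) than with their own.

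The members and the 47 gene lists were chosen with earlier results of these data known. Named genes are a selection from the 15 largest called rises and 15 largest called falls, for each list the 4 measured members (or fewer) of smallest p, the doublecortin family, and up to 5 genes per direction detected in 1 layer only. For the last group, the dim layer's level is a bound, set on each array as the higher of the probe's own signal and the lowest signal of a probe with a detection p under 0.05. Summed signals are sums of normalised linear values over a list's measured genes.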

Additional observations from a re-analysis of the deposited data

Results flagged for a closer look

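The 4 within-animal differences of each gene named in the text were examined for a single animal far from the other 3 (Dixon's criterion at the 95% level), as were the array measures of each group. Of 113 such sets 8 met it, and chance flags about 1 in 20.

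Animal 147, with the dimmest inner array, was the distant one in 6 of the 8. In it Selenof differed by -3.62 (others -1.36 to -0.98), Dnm1 by -1.61 (others -0.84 to -0.83), Cpne4 by -1.54 (others -0.53 to -0.41) and Neto1 by -1.26 (others -0.91 to -0.86). Bok was 1.26 higher in its inner layer (others 0.34 to 0.44), and Gpr17 0.023 higher (others 1.40 to 1.59). Lypd1 rose least in animal 148, by 1.79 (others 2.79 to 2.99). Kl rose least in animal 166, by 0.83 (others 1.23 to 1.30).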

How the results depend on the processing

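Arrays, not features, limited this comparison: with 4 pairs the exact test cannot pass, and dim arrays bring genes near the detection limit. The alternatives were planned except median scaling over all probes, which was chosen after seeing the data. Between them 0 to 1944 features were called, and the 249 and 129 features kept their sign, where tested, under all of them except both median scalings, where 249 and 190 of those called higher were still above 0 and 121 and 129 of those called lower still below 0. In fits on fewer animals the sign could not change, since every called feature had the same sign in all 4 animals. The animal numbers pair the arrays. Without the replicate block 194 features were called, 10 of them lower, and 176 of the 378 remained. All 14 arrays with the animal as a random replicate block called 1944 (1040 higher, 904 lower), array quality weights 870 (516 and 354) and log2 mean raw signal as a covariate 138 (109 and 29). Leaving out 1 animal gave 0 to 610 calls, 0 to 390 higher and 0 to 220 lower, and animals 146 and 166 alone gave 245, 150 of them higher. No background correction called 1090 (599 and 491), the deposited normalised values 1086 (595 and 491), no detection filter 106 (75 and 31) and detection on all 8 arrays 867 (550 and 317). Calls in the lower direction numbered 64 with median scaling, which moved the median of all features to 0.079, 213 with normalisation over the 8 paired arrays alone and 217 with every probe as a feature. Median scaling called 262 higher, so the higher share of the calls changed from 65.9% to 80.4%. Median scaling over all probes, of which under 50% were detected, moved the median of all features to -0.73 and called 0 features, with 1114 at an unadjusted p under 0.05. The causes of these changes were not tested. A slide or scan block was not run, since the headers used here name none.

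Of the 87 called genes named in the text, 87 stayed called without animal 147, 87 lost the call without animal 146, 87 without animal 166 and 86 without animal 148, 34 lost it without the block, 56 with the signal covariate and 28 with median scaling. Dcx, Dclk1 and Dclk2 lay near 0 and changed sign. Dcx was 0.28 without animal 147, -0.0069 with all 14 arrays, -0.15 without animal 146 and -0.13 without animal 166. Dclk2 was 0.037 without animal 148, -0.020 with array weights, -0.070 with the covariate, -0.032 without animal 147, -0.0040 without animal 166, -0.0065 in animals 146 and 166 alone and -0.15 with median scaling, which put Dclk1 at -0.036. Median scaling over all probes turned Cspg5 (-0.50), Vtn (-0.19), Slc2a1 (-0.43), Bok (-0.19), Cds1 (-0.095), Cntnap4 (-0.026), Kcnip3 (-0.28), Rps19 (-0.24), Rpl37 (-0.33), Dclk1 (-0.84), Dclk2 (-0.95), Dclk3 (-0.14) and Dcx (-0.070). The mean raw signal difference stayed negative without each animal (-164 to -77.9) and for the median over probes (-13.0), and that of detected probes likewise (-1117 to -175, and -751 at a detection p under 0.01). With median scaling the outer array of animal 165 lay nearer the outer mean for 326 of the 326 called features.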
